A study of Homo sapiens with 6 samples.

Results

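The genes described here are 10 of the 35820 gene entries in tables from TOP3B knockout and wild-type HT1080 cells, chosen by symbol. They are the genes CDKN2A, CDKN2B and MTAP of the chromosome band 9p21, the other inhibitors of cyclin-dependent kinases CDKN1A, CDKN1B, CDKN2C and CDKN2D, the retinoblastoma gene RB1, and the D cyclins CCND1 and CCND2. All 10 symbols had an entry in both deposited tables.

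HT1080 is a human fibrosarcoma line, and total RNA depleted of ribosomal RNA was sequenced. The 3 TOP3B knockout (KO) libraries came from HT1080 cells edited by CRISPR with a guide RNA against exon 2 of TOP3B, which encodes a topoisomerase that acts on DNA and RNA. The labels name 1 knockout clone, so the edit and the clone cannot be told apart. The 3 wild-type (WT) libraries came from unedited HT1080 cells kept in the same medium. The series text names the colon carcinoma line HCT116 once for WT, where the sample labels name HT1080. The labels do not call the replicates separate cultures, so a p-value reads the spread of these libraries alone, and that spread may be technical.

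Cells leave the G1 phase and start DNA replication when D cyclins activate the kinases CDK4 and CDK6, which phosphorylate the retinoblastoma protein and free E2F transcription factors. INK4 inhibitors, the products of CDKN2A to CDKN2D, bind CDK4 and CDK6, and CIP/KIP inhibitors, among them the products of CDKN1A and CDKN1B, bind complexes of cyclins and kinases. CDKN2A also encodes ARF, which protects p53, from an upstream first exon. MTAP encodes an enzyme of methionine salvage and is often deleted together with CDKN2A in tumours, and loss of this region is known for HT1080.

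The libraries held 17919106 to 20475280 counts each. KO replicate 3 stood apart: the SD of log2 differences between pairs of replicates ran from 0.259 to 0.660 within KO and from 0.282 to 0.335 within WT, and the wide KO pairs were those that included it. Mitochondrial transcripts took 5.70% of its counts, against 8.23% to 10.0% in the other 5 libraries. TOP3B itself had 407, 383 and 361 counts in KO and 536, 376 and 469 in WT, which overlap, and a gene count does not check a small edit. Mesenchymal markers summed to between 18029 and 19886 CPM (counts scaled to library size, per 1e6) in KO and between 28693 and 29968 CPM in WT, and THY1 had 0 counts in KO and 1 in WT. The markers did not all move together. Of 11 tested, 1 was higher and 4 were lower in KO at an adjusted p under 0.05 (edgeR), beside 3.21% and 4.63% of all genes tested. Of 11 epithelial and colon markers, CDH17, CDX2, KRT20, TFF3 and CEACAM5 were at 0 in all 6 libraries, and the list summed to 1.97 to 2.50 CPM in KO and 2.51 to 3.19 CPM in WT. Leukocyte and endothelial markers, mostly CD68, summed to 3.88 to 13.9 CPM in KO and 10.2 to 17.5 CPM in WT.

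The starts of 3 genes, picked for their counts, are printed, and no result rests on these sequences. They are CDKN2A, an INK4 gene with no counts, CDKN2D, an INK4 gene that rose, and RBL1, a relative of RB1 that rose. Each stretch runs from 250 bases before to 50 bases after a transcript start, is taken from RefSeq on GRCh38.p14, and is written on the strand of the gene. Capitals mark the GC box GGGCGG on either strand in CDKN2A and CDKN2D, a motif in 45.0% of 35116 promoters of this length. In RBL1 capitals mark the E2F-type motif TTTNGCGC on either strand, which 1.79% of those promoters hold.
CDKN2A, INK4a start, chr9:21974808-21975107, minus strand: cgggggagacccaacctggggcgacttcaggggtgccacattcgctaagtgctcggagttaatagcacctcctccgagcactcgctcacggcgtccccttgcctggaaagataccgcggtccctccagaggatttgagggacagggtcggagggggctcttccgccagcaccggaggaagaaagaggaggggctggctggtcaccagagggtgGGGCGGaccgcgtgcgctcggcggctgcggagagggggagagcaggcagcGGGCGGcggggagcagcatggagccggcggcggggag
CDKN2A, ARF start, chr9:21995275-21995574, minus strand: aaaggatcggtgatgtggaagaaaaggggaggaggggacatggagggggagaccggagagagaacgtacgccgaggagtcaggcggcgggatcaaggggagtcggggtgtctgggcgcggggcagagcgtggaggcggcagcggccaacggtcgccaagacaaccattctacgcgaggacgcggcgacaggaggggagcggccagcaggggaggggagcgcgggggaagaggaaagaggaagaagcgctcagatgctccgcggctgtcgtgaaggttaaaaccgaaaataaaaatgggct
CDKN2D, chr19:10568930-10569229, minus strand: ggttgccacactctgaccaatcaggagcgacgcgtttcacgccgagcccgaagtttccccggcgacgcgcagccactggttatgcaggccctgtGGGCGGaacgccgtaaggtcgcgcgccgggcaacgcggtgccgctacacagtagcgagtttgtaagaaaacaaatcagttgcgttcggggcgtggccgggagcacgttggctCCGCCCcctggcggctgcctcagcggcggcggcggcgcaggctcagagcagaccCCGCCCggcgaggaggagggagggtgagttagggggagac
RBL1, chr20:37095948-37096247, minus strand: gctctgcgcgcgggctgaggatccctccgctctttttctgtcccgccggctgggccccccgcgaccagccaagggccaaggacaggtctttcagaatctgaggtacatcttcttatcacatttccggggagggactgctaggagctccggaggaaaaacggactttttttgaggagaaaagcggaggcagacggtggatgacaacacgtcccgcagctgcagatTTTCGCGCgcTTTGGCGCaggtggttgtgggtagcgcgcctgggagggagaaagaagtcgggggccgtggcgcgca

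The stretch at the INK4a start held 2 GC boxes and 26 CpG dinucleotides, and the one at the ARF start held 0 GC boxes and 28 CpG. The CDKN2D stretch held 3 GC boxes and 36 CpG, and RBL1 held 2 E2F-type matches. Promoter entries matched 8 of the 10 genes, with 11 entries in all, of which 8 held a GC box and 0 the E2F-type motif. The RB1 entry, chr13:48476200-48476499 with 0 CpG, lies inside the annotated RB1 span. The stretch at the annotated start of RB1, at 48303726, was therefore not searched. A match describes letters and is not a shown binding site. RBL1 is not among the genes chosen by symbol, and matches were not listed for the E2F target genes. Whether the RBL1 matches relate to its rise was not tested.

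At 9p21, CDKN2A and CDKN2B had 0 counts in each of the 6 libraries, while MTAP beside them was counted in all 6. In GENCODE v29 on GRCh38, CDKN2A spans 21967753 to 21995301 on chromosome 9 (minus strand), CDKN2B 22002903 to 22009363 (minus strand) and MTAP 21802543 to 21937651 (plus strand). The floor was 3 counts, divided by library totals without the scaling factors used for the other CPM values. A count of 0 then allows up to 0.147 to 0.162 CPM in a KO library and 0.147 to 0.167 CPM in a WT library. Over the summed libraries it allows 0.0511 CPM in KO and 0.0510 CPM in WT. These limits cover counting error only.

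MTAP had 219, 215 and 297 counts in KO and 144, 160 and 199 in WT. Its level was 10.8, 10.8 and 15.2 CPM in KO and 8.19, 8.10 and 9.78 CPM in WT. All KO libraries lay above all WT libraries, with replicate 3 of KO the highest. The difference did not pass, with a log2 fold change of KO over WT of 0.49 ± 0.21 (SE) and an adjusted p of 0.202 (edgeR quasi-likelihood test, Benjamini-Hochberg over 13965 genes). The 9p21 genes are described as lost in HT1080, yet MTAP was counted in every library, while CDKN2A and CDKN2B were at 0. Of 24 protein-coding entries from MLLT3 to C9orf72, 13 were at 0 in all libraries, among them the interferon genes IFNA21, IFNA7 and IFNA10. The share of all entries at 0 was not computed. This count and the later counts of 9p21 entries at 0 therefore do not mark the region out. A count of 0 does not by itself show a lost gene, and loss of DNA was not tested. The tables give 1 value a gene, so which exons of MTAP carried the counts was not tested.

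CDKN2B-AS1, an antisense RNA gene that overlaps both CDKN2A and CDKN2B, had 54, 22 and 26 counts in KO and 41, 26 and 29 in WT. The groups overlapped, with an adjusted p of 0.993 in edgeR. The sources used here do not say whether strand was used in counting, so reads of an antisense gene and its partner may not be separable. Of 53 other entries within 3 Mb of CDKN2A, 33 were at 0 in all libraries and 11 were tested, with 0 called by edgeR, 3 at an unadjusted p under 0.05, 1 called by DESeq2 and 0 by limma-voom. The nearest tested genes that do not overlap CDKN2A were MTAP, 30.1 kb away, and the non-coding LINC01239, 650.9 kb away on the other side. LINC01239 was at 5.26, 3.37 and 3.43 CPM in KO and 5.23, 4.46 and 7.13 CPM in WT, overlapping (adjusted p = 0.373, edgeR). On the far side of MTAP the nearest tested gene was IFNE, an interferon of epithelia, at 3.39, 1.96 and 1.89 CPM in KO and 3.75, 4.46 and 4.23 CPM in WT (adjusted p = 0.192, edgeR).

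**Figure D1:**
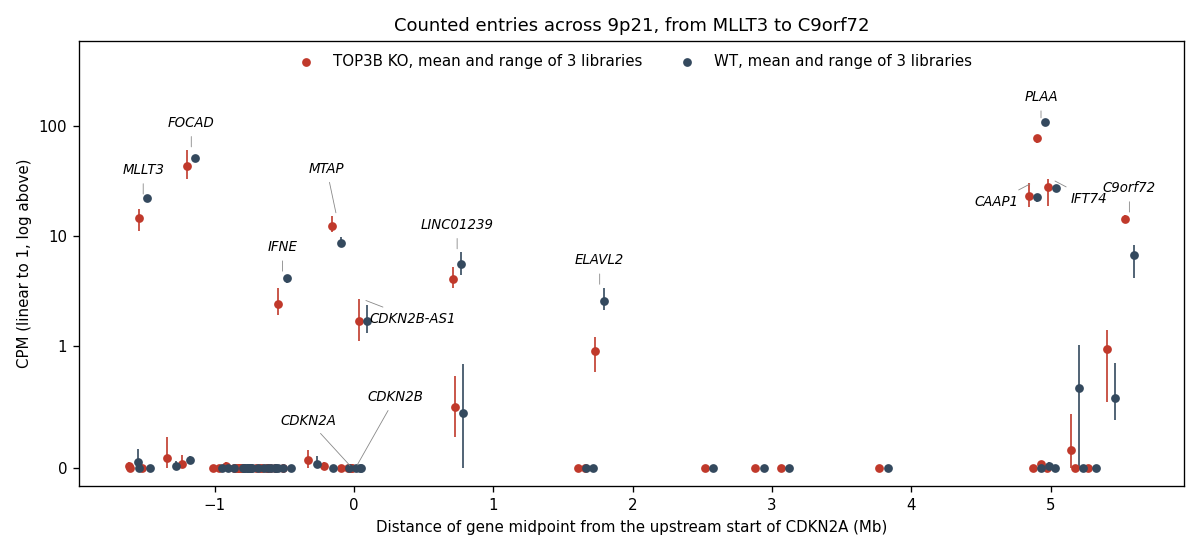
Level in CPM (axis linear to 1, logarithmic above) of each entry from MLLT3 to C9orf72 against the distance of the gene midpoint from the upstream start of CDKN2A in Mb, with points for the mean and lines for the range of 3 TOP3B KO (red) or 3 WT (dark blue) libraries. CDKN2A and CDKN2B are at 0 in all 6 libraries, between MTAP at 8.10 to 15.2 CPM and LINC01239 at 3.37 to 7.13 CPM.

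A list of 9p21 genes had 28 entries in the table, 15 of them at 0 in all libraries and 12 tested. Of these 0 rose, 1 fell and 11 did not pass, where 7.84% of all genes tested were called. Their median log2 fold change was -0.12 beside 0.05 for all genes tested, and it was -0.48 without KO replicate 1 and -0.25 with a filter of 1 CPM in 3 libraries. The gene that fell was PLAA, which encodes a ubiquitin-binding protein, at 78.9, 83.8 and 70.1 CPM in KO and 107, 111 and 106 CPM in WT. All KO libraries lay below all WT libraries (log2 fold change -0.48 ± 0.10, adjusted p = 0.0402, edgeR). The call held without KO replicate 3 (0.0169) and was lost when any of the other 5 libraries was left out, at 0.0833 to 0.149.

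Among the 10 genes, 5 passed the filter on low counts: MTAP, CDKN1A, CDKN2D, RB1 and CCND1. Of these 1, CDKN2D, was called higher in KO and 0 lower. Over all genes tested, 7.84% were called, 3.21% higher and 4.63% lower. DESeq2 called 1 of the 10 genes, where it called 13.5% of all genes, and limma-voom called 0, where it called 7.98%. Without KO replicate 3 edgeR called 1, where it called 13.2% of all genes. The KO and WT libraries did not overlap for 2 of the 5, CDKN2D and MTAP, both higher in KO, while 33.6% of all genes tested did not overlap, 16.5% with KO higher. The genes under the filter were CDKN2A, CDKN2B, CDKN1B, CDKN2C and CCND2.

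**Figure D2:**
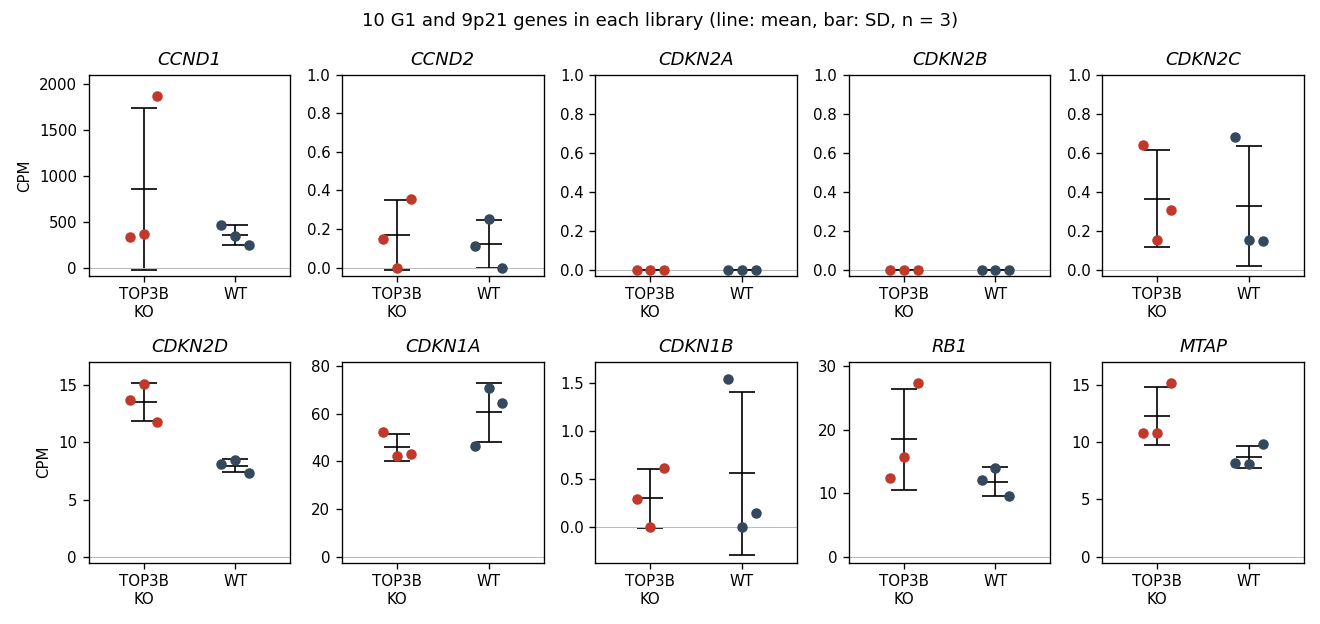
CPM of each of the 10 genes in each library (points), TOP3B KO left of WT, with the group mean and SD (n = 3) as bars and a separate linear axis per gene. CDKN2D and MTAP are the genes whose groups do not overlap, and CCND1 in KO replicate 3 stands at 1871 CPM against 254 to 467 CPM elsewhere.

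CDKN2D encodes the INK4 inhibitor p19-INK4d and spans 10566462 to 10569059 on chromosome 19 (minus strand). It had 280, 301 and 230 counts in KO and 142, 167 and 150 in WT. Its level was 13.6 ± 1.70 CPM in KO and 7.97 ± 0.552 CPM in WT (SD, n = 3 each). The lowest KO library, at 11.8 CPM, stood above the highest WT library, at 8.46 CPM. CDKN2D rose 1.70-fold (log2 fold change 0.77 ± 0.18, adjusted p = 0.0467, edgeR). In bulk RNA, more cells that express a gene and more of its RNA per cell cannot be told apart, nor can fewer cells and less RNA. Without KO replicate 3 the log2 fold change was 0.85 and the call held (adjusted p = 0.0207). The call was lost without KO replicate 1 (0.119), KO replicate 2 (0.141), WT replicate 1 (0.140), WT replicate 2 (0.135) or WT replicate 3 (0.161). The adjusted p was 0.00582 in DESeq2 and 0.0507 in limma-voom, and ran from 0.00582 to 0.161 over the alternatives.

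CDKN2C, which encodes the INK4 inhibitor p18-INK4c, spans 50960745 to 50974633 on chromosome 1 (plus strand). It had 13, 3 and 6 counts in KO and 12, 3 and 3 in WT, too few to be tested. The groups overlapped, at sums of 22 counts in KO and 18 in WT. CDKN2D was therefore the INK4 gene with most counts in these libraries.

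CDKN1A encodes p21, a CIP/KIP inhibitor induced by p53, and spans 36676460 to 36687339 on chromosome 6 (plus strand). It had 1064, 839 and 842 counts in KO and 819, 1395 and 1314 in WT. Its level was 52.3, 42.2 and 43.0 CPM in KO and 46.6, 70.7 and 64.6 CPM in WT. WT replicate 1 lay among the KO libraries, and the other WT libraries lay above them. The log2 fold change was -0.40 ± 0.18 with an adjusted p of 0.233 in edgeR, and it did not pass under any of the 16 alternatives.

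CDKN1B encodes p27, the CIP/KIP inhibitor of resting cells, and spans 12715058 to 12722371 on chromosome 12 (plus strand). It had 6, 0 and 12 counts in KO and 27, 0 and 3 in WT. Both groups included a library at 0, and the gene was not tested. Whether these low counts mean a silent gene was not tested. ACTB, a gene of nearly every cell, was at 67.3 to 73.8 CPM in KO and 77.6 to 96.4 CPM in WT, all KO libraries below all WT libraries. RPS6, a ribosomal protein gene, was at 1956 to 2373 CPM in KO and 1700 to 1938 CPM in WT. PPIL1, like CDKN1B, had 0 counts in some libraries, with 0, 31 and 0 in KO and 33, 14 and 66 in WT. ACTB, RPS6 and PPIL1 were picked with their values known. Whether the counting missed reads of ACTB or CDKN1B was not tested.

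RB1 encodes the retinoblastoma protein and spans 48303726 to 48599436 on chromosome 13 (plus strand). It had 251, 311 and 536 counts in KO and 211, 275 and 193 in WT. Its level was 12.3, 15.6 and 27.4 CPM in KO and 12.004, 13.9 and 9.48 CPM in WT. KO replicate 3 lay above all others, and the other KO libraries were within or near the WT range. The log2 fold change was 0.64 ± 0.32 (adjusted p = 0.271, edgeR), and it was 0.24 without KO replicate 3 (adjusted p = 0.529).

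CCND1 encodes cyclin D1 and spans 69641087 to 69654474 on chromosome 11 (plus strand). It had 6872, 7280 and 36605 counts in KO and 8217, 6843 and 5169 in WT. Its level was 338, 366 and 1871 CPM in KO and 467, 347 and 254 CPM in WT. KO replicates 1 and 2 lay inside the WT range and KO replicate 3 far above it. The log2 fold change of 1.27 ± 0.68 did not pass (adjusted p = 0.301, edgeR). Without KO replicate 3 it was -0.025 (adjusted p = 0.959), so that library set both its size and its sign.

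KO replicate 3 had 4.003 times the CCND1 level of the next highest library. Among the 9510 genes averaging 5 CPM or more, 10 (0.105%) showed a ratio of at least 4. The same ratio was 1.75 for RB1, a value that 3.15% of genes reached, and 1.40 for MTAP, which 7.87% reached. For CDKN2D and CDKN1A, KO replicate 3 was not the highest library, with ratios of 0.777 and 0.609. What set KO replicate 3 apart was not tested.

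CCND2 encodes cyclin D2 and spans 4273772 to 4305350 on chromosome 12 (plus strand). It had 3, 0 and 7 counts in KO and 2, 5 and 0 in WT and was not tested. CCND1 thus carried nearly all D1 and D2 counts. Its share of the counts of all 10 genes was 78.9%, 81.3% and 95.0% in KO and 85.8%, 77.3% and 73.5% in WT.

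**Figure D3:**
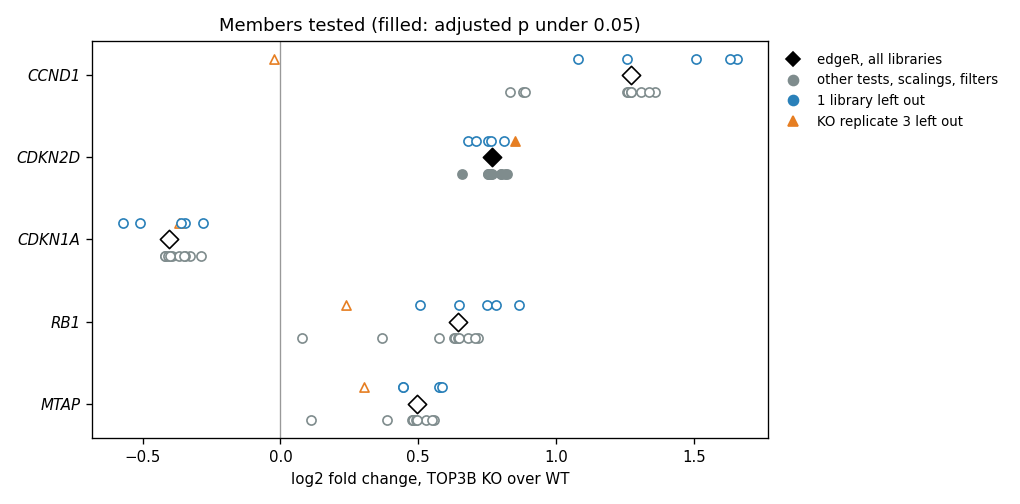
Log2 fold change of TOP3B KO over WT for the 5 tested genes (rows) in edgeR with all libraries (diamonds), with 1 library left out (blue circles; orange triangles without KO replicate 3) and with other tests, scalings and filters (grey), filled where the adjusted p is under 0.05; some points overlap. CDKN2D stays between 0.68 and 0.85 when single libraries are left out, while CCND1 lies between -0.025 and 1.66.

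Between genes, levels were compared as CPM per kb of exon. CCND1 was highest, at 178 ± 182 in KO and 73.7 ± 22.2 in WT (CPM per exon kb, SD, n = 3 each). CDKN1A followed at 15.03 ± 1.84 in KO and 19.9 ± 4.10 in WT, and CDKN2D at 9.02 ± 1.13 in KO and 5.30 ± 0.367 in WT. Each of these was above the next in every library on this scale.

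RB1 was at 2.86 ± 1.23 CPM per exon kb in KO and 1.83 ± 0.346 in WT, and MTAP at 0.838 ± 0.174 in KO and 0.595 ± 0.0645 in WT. In the deposited RPKM this pair changed places, with MTAP at 0.305 in KO and 0.207 in WT and RB1 at 0.164 in KO and 0.0995 in WT. The length implied by count and RPKM was 116 kb for RB1 and 41.1 kb for MTAP, against exon lengths of 6.45 kb and 14.6 kb. CDKN2C, at 0.110 in KO and 0.0987 in WT, CDKN1B, at 0.108 in KO and 0.200 in WT, and CCND2, at 0.0235 in KO and 0.0171 in WT, had ranges over libraries that overlapped on this scale.

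The machinery around these genes was read from 6 further lists, to be set beside the 7.84% of all genes tested that were called. Of 15 tested cyclins, kinases and partners of the G1 core, 0 were called by edgeR, with 4 at an unadjusted p under 0.05, which 24.7% of all genes tested had, and 2 called by DESeq2. Their median log2 fold change was 0.35, beside 0.05 for all genes tested, and it was 0.24 without KO replicate 3 and 0.22 without WT replicate 2. CDK4, the partner of D cyclins, was at 163, 187 and 280 CPM in KO and 180, 180 and 181 CPM in WT (adjusted p = 0.531, edgeR). CDC37, the chaperone partner that loads kinases such as CDK4, was at 65.1, 57.4 and 138 CPM in KO and 88.7, 66.6 and 69.7 CPM in WT (adjusted p = 0.735, edgeR). For both, KO replicate 3 was the highest library, and without it the log2 fold change was -0.05 for CDK4 and -0.30 for CDC37.

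Of 19 pocket proteins, E2F factors and partners tested, 3 rose, 1 fell and 15 stayed under the threshold, and the median log2 fold change was 0.28. Without KO replicate 3 this median was 0.10, and without KO replicate 2 it was 0.41. RBL1, which encodes the pocket protein p107, was at 46.1, 51.6 and 52.4 CPM in KO and 24.2, 24.2 and 24.3 CPM in WT. All KO libraries lay well above all WT libraries. It rose 2.06-fold (log2 fold change 1.05 ± 0.11, adjusted p = 0.00562, edgeR) and passed in all 6 fits without 1 library. HDAC1, a histone deacetylase that RB1 recruits, averaged 26.3 ± 2.03 CPM in KO and 17.6 ± 0.390 CPM in WT (adjusted p = 0.0423, edgeR). RBBP4, a histone-binding partner of RB1, averaged 473 ± 37.8 CPM in KO and 335 ± 9.60 CPM in WT (adjusted p = 0.0206, edgeR). E2F3, an activating E2F, fell to 61.0 ± 7.20 CPM in KO, against 104 ± 12.8 CPM in WT (adjusted p = 0.0242, edgeR). The list left out E2F1 and E2F2, so it does not cover the whole E2F family.

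Of 22 E2F target genes of the start of DNA replication tested, 3 rose, 0 fell and 19 stayed under the threshold, and the median log2 fold change was 0.57, and 0.54 without KO replicate 3. All KO libraries lay above all WT libraries for 14 of the 22, beside 16.5% of all genes tested. An unadjusted p under 0.05 was found for 12, all higher in KO, beside 11.9% of all genes tested that were higher at that p. RRM2, a subunit of ribonucleotide reductase, was at 137, 145 and 183 CPM in KO and 81.2, 70.3 and 58.1 CPM in WT. The groups did not overlap, and it rose 2.22-fold (adjusted p = 0.0120, edgeR). It passed in 4 of 6 fits without 1 library, and was at 0.0687 without WT replicate 2 and 0.0550 without WT replicate 3. TYMS, thymidylate synthase, rose to 20.96 ± 9.34 CPM in KO, against 7.62 ± 1.02 CPM in WT (adjusted p = 0.0414, edgeR). Its KO libraries were at 15.6, 15.5 and 31.7 CPM, with KO replicate 3 the highest. Its log2 fold change was 1.46, and 1.02 without that library. TYMS did not pass in limma-voom (adjusted p = 0.0584). MCM5, a subunit of the replicative helicase, averaged 306 ± 27.0 CPM in KO and 217 ± 16.3 CPM in WT (adjusted p = 0.0341, edgeR).

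Of 18 tested genes for the turnover of CDK inhibitors and D cyclins, 1 rose, 0 fell and 17 stayed under the threshold, and the median log2 fold change was 0.07, with 0.13 without KO replicate 3 and 0.040 without KO replicate 2. DDB1, an adaptor of CUL4 ubiquitin ligases, rose to 32.1 ± 3.01 CPM in KO, against 18.9 ± 0.124 CPM in WT (adjusted p = 0.0188, edgeR). All KO libraries of DDB1 lay above all WT libraries.

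Of 31 tested upstream regulators of D cyclins and CDK inhibitors, 3 rose, 1 fell and 27 stayed under the threshold, and the median log2 fold change was 0.05, with -0.017 without KO replicate 1 and 0.11 without WT replicate 3. FOSL1, an AP-1 factor, was at 429, 451 and 505 CPM in KO and 284, 234 and 197 CPM in WT. It rose 1.94-fold (adjusted p = 0.0139, edgeR) and passed in 3 of 6 fits without 1 library. ID1, an inhibitor of helix-loop-helix factors, and EZH2, the Polycomb methyltransferase, rose with log2 fold changes of 0.67 and 0.63 (adjusted p = 0.0253 and 0.0243, edgeR). CTNNB1, beta-catenin, fell to 429 CPM in KO, against 666 CPM in WT (adjusted p = 0.0442, edgeR).

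Of 19 tested genes of methionine salvage and MTAP-linked metabolism, 2 rose, 0 fell and 17 stayed under the threshold, and the median log2 fold change was 0.39. CLNS1A, a partner of the methyltransferase PRMT5, was at 279, 293 and 316 CPM in KO and 214, 215 and 208 CPM in WT (adjusted p = 0.0190, edgeR). MAT2A, which makes S-adenosylmethionine, was at 168, 186 and 182 CPM in KO and 143, 135 and 136 CPM in WT (adjusted p = 0.0469, edgeR). The groups did not overlap for either gene. HDAC1, RBBP4, TYMS, MCM5, DDB1, ID1, EZH2, CTNNB1, CLNS1A and MAT2A each passed in 1 of the 6 fits without 1 library, the one without KO replicate 3, and E2F3 passed in 2.

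**Figure D4:**
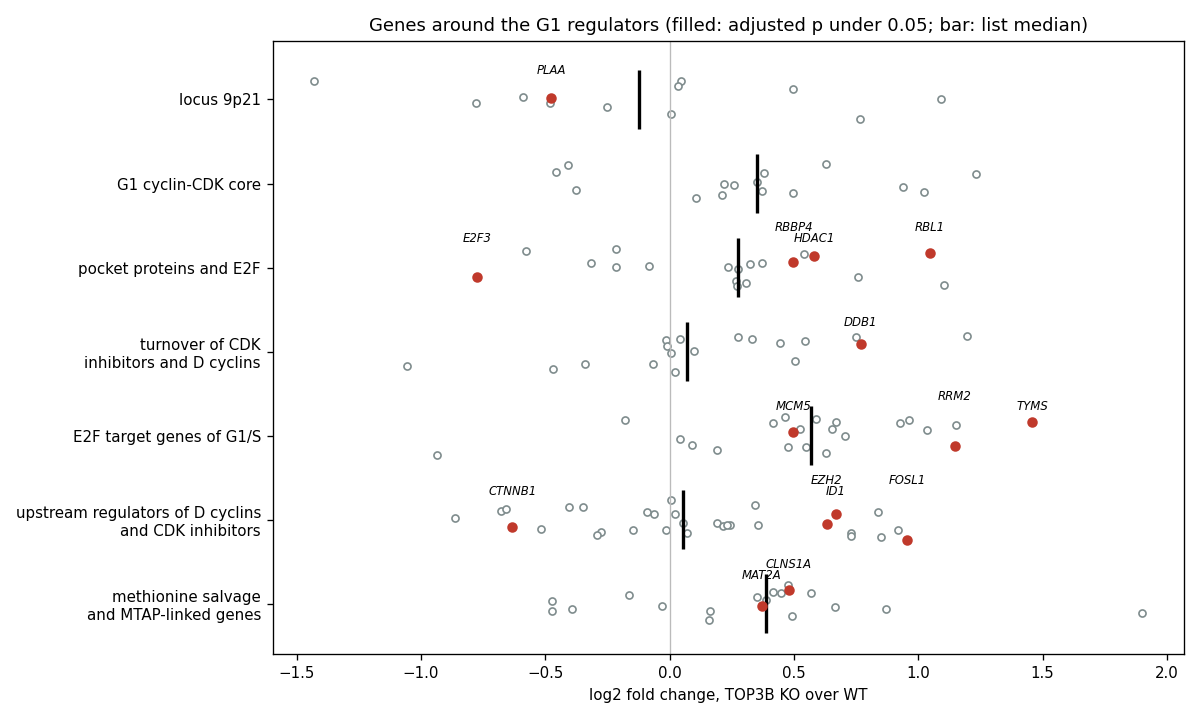
Log2 fold change of TOP3B KO over WT for the tested genes (points) of each list (rows), with filled, named points for genes past an adjusted p of 0.05 in edgeR and a bar for the median of the list. The median is 0.57 for E2F target genes and -0.12 for 9p21 genes (-0.48 without KO replicate 1), beside 0.05 for all 13965 genes tested.

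Within 500 kb of the members outside 9p21, 8 of 69 tested genes were called (11.6%), beside 7.84% of all genes tested. Near CDKN1A, 3 of 8 tested genes fell: BRPF3, a chromatin reader, at 179, 181 and 158 CPM in KO and 290, 290 and 280 CPM in WT, with C6orf89 (log2 fold change -0.92, adjusted p = 0.00850, edgeR) and MTCH1 (-0.43, adjusted p = 0.0303, edgeR). BRPF3 had an adjusted p of 0.00730 in edgeR and passed in all 6 fits without 1 library. The nearest tested genes, SRSF3 (adjusted p = 0.0972) and PPIL1 (adjusted p = 0.457), did not pass in edgeR.

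Near CDKN1B, 1 of 13 tested genes rose: GPRC5A, an orphan receptor induced by retinoic acid, was at 158, 165 and 136 CPM in KO and 69.9, 85.2 and 78.6 CPM in WT. Its groups did not overlap (adjusted p = 0.00830, edgeR), and it passed in all 6 fits without 1 library. GPR19 and APOLD1, the nearest tested genes, did not pass. Near CDKN2C, 1 of 5 rose: FAF1, less than 1 kb away, at 148, 154 and 136 CPM in KO and 90.2, 98.4 and 103 CPM in WT (adjusted p = 0.0188, edgeR). LINC01562 on the other side did not pass.

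Near CDKN2D, 2 of 27 tested genes fell, opposite in direction to CDKN2D. TYK2, a kinase of interferon and cytokine receptors, was at 3.59, 2.46 and 1.33 CPM in KO and 20.1, 22.1 and 13.4 CPM in WT. All KO libraries lay far below all WT libraries (log2 fold change -2.91 ± 0.39, adjusted p = 0.0101, edgeR), and it passed in 5 of 6 fits without 1 library. SLC44A2, a choline transporter, fell with a log2 fold change of -0.63 (adjusted p = 0.0288, edgeR). KRI1, less than 1 kb from CDKN2D, and AP1M2 on the other side did not pass.

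Near CCND1, 1 of 3 tested genes rose: MYEOV, at 5.95, 5.94 and 6.75 CPM in KO and 3.13, 2.38 and 2.26 CPM in WT (adjusted p = 0.0287, edgeR). LTO1, which overlaps the annotated span of CCND1, was at 48.6, 48.9 and 58.4 CPM in KO and 41.9, 36.0 and 37.5 CPM in WT and did not pass (adjusted p = 0.0976, edgeR). Near RB1, 0 of 6 tested genes were called, ITM2B and FNDC3A included, 0 at an unadjusted p under 0.05, 0 called by DESeq2 and 0 by limma-voom. Near CCND2 it was 0 of 7, 4 at an unadjusted p under 0.05, 2 called by DESeq2 and 0 by limma-voom, with TIGAR at an adjusted p of 0.0544 and PARP11 at 0.829 (edgeR).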

How the data were processed

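Total RNA of 3 TOP3B KO and 3 WT libraries was analysed. Per the submitters' processing notes, Salmon 1.10.1 and hg19 are named, without their roles. The authors deposited an estimated count per gene, already whole, which was used as it stands, and an RPKM per gene. For the members with enough counts, the length implied by count and RPKM exceeded the exon length. 1 entry named differently in the tables was left out.

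After filterByExpr, the quasi-likelihood test of edgeR 4.0.16 (TMM scaling, R 4.3.3) was run on 13965 genes, and p-values were adjusted by Benjamini-Hochberg over all of them. Calls have an adjusted p under 0.05. SE came from the F statistic, and CPM uses TMM-scaled sizes. Floors are 3 counts over library totals without TMM scaling. Alternatives were DESeq2 1.42.0, limma-voom and limma-trend (limma 3.58.1), other scalings and filters, and each library left out. The test was checked on simulated data with the same spread setting for every gene and library. That simulation held no library set apart as KO replicate 3 was, so it does not cover that case. Positions are from GENCODE v29.

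The 10 genes and the lists were chosen with earlier results of these data known. Named were the 10 genes, at most 3 called genes per direction and list with the largest change and a mean of at least 1 CPM, the 2 most abundant genes of a list without calls, and the nearest tested and any called neighbour. KO replicate numbers follow deposition order, since the labels give none.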

Additional observations from a re-analysis of the deposited data

How the results depend on the processing

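CDKN2D kept its direction in all 16 alternatives and its call in 9, and no other of the 10 genes was called in any. MTAP, CDKN1A and RB1 kept their direction in all 16. Without KO replicate 3, CCND1 reversed to a log2 fold change of -0.025, CDK4 to -0.052 and CDC37 to -0.30, against up to 1.66, 0.37 and 0.43 with another library left out. The number of the 10 genes called was 0 with limma-voom and 0 with no filter.

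DESeq2 called 2068 genes in all, 13.5% of those it tested, beside 1095 in edgeR. Among list genes tested in edgeR, it called 7 of 22 E2F targets, 2 of 15 in the G1 core and 3 of 12 at 9p21. It called 10 of 31 upstream regulators, 4 of 19 in methionine salvage, 5 of 19 in the pocket protein list and 1 of 18 for turnover. Methionine salvage had 1 call with limma-voom and 1 with no filter, and 9p21 had 0 with no filter. With limma-trend on log2(RPKM + 1), 9p21 had 2 calls and the pocket protein list 2, and with a pseudocount of 0.1 the pocket protein list had 2. The G1 core had 1 call with library sizes without the 100 most abundant genes. In WT, CCND1 was 3.71 times CDKN1A per exon kb and 8.19 times in RPKM. These scales divide by different lengths. The length implied by count and RPKM was 7.75 kb for CDKN1A and 5.56 kb for CCND1, against exon lengths of 3.05 kb and 4.83 kb. The causes of the other changes were not tested.

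Leaving out 1 library at a time gave 223 to 1899 called genes in all, highest without KO replicate 3 and lowest without WT replicate 2. The range was 0 to 1 for the 10 genes, 0 to 4 for E2F targets, 0 to 1 for the G1 core, 0 to 1 for 9p21, 0 to 2 for methionine salvage, 1 to 4 for pocket proteins, 0 to 1 for turnover and 0 to 5 for upstream regulators. With limma-trend on log2(RPKM + 1), list medians shrank to 0.27 for E2F targets, 0.19 for methionine salvage and -0.010 for 9p21, beside 0.018 for all genes tested. With a pseudocount of 0.1 they were 0.555, 0.24 and -0.089, beside 0.059. Library size alone put the median log2 fold change of all genes at 0.11, beside 0.05. No paired analysis was possible because the KO labels carry no replicate numbers. Low counts limit what can be said of CDKN1B, CDKN2C and CCND2, and those of CDKN1B varied between libraries of similar depth.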

Other observations

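CDK6, the other kinase partner of D cyclins, varied within both groups, at 108, 116 and 25.2 CPM in KO and 95.6, 14.3 and 51.0 CPM in WT (adjusted p = 0.646, edgeR). CCND3, the third D cyclin gene, was at 9.68, 13.3 and 5.11 CPM in KO and 13.4, 12.8 and 12.4 CPM in WT (adjusted p = 0.440, edgeR). Both genes were chosen after their values were seen.

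The genes whose pattern was most like CDKN2D over the 6 libraries, by Pearson's r of log2(CPM + 1) among 9510 genes, were STMN1 (0.998), TUBA1B (0.998) and TBC1D1 (0.997). For CCND1 they were RPL41 (0.998), P2RX4 (0.998) and ARHGDIA (0.997). The 6 points share libraries and scaling, and for CCND1 the value rests on KO replicate 3, where ARHGDIA was at 505 CPM against 137 to 200 CPM in the other libraries.

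Further along 9p21, the neuronal RNA-binding gene ELAVL2 was at 0.786, 1.21 and 0.869 CPM in KO and 2.22, 2.13 and 3.39 CPM in WT (adjusted p = 0.0614, edgeR). C9orf72 was at 14.2, 15.4 and 13.5 CPM in KO and 4.15, 8.21 and 7.81 CPM in WT (adjusted p = 0.0621, edgeR). Their groups did not overlap, and both were chosen after their values were seen.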
